A study of Homo sapiens with 9 samples.

Results

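The nucleolus is where ribosomal RNA is transcribed by RNA polymerase I, modified, cut and packed with ribosomal proteins into the small and large ribosomal subunits. Small nucleolar ribonucleoproteins (snoRNPs) guide the chemical modification of the RNA, the small subunit processome assembles on the nascent transcript, and further sets of factors mature and export the large subunit. Many genes of this pathway are known targets of the transcription factor MYC, whose own transcription depends on BET proteins in many tumour cells.

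A list of 48 genes was followed here, chosen by name for known roles in the nucleolus or in cell growth. Earlier results of these data were known when it was chosen. Most are genes of ribosome biogenesis or nucleolar structure, and 3 belong to polyamine and pyrimidine synthesis (SRM, ODC1 and CAD), whose products are not nucleolar. Of the 48, 32 had a named row on the array, out of 14884 named genes. The 16 without one were not analysed here: the RNA polymerase I subunits POLR1A, POLR1B and POLR1C, and NOP56, RRP9, DKC1, UTP4, UTP15, UTP20, PES1, PPAN, GNL3, DDX18, NPM1, PA2G4 and CAD.

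The cells were MDA-MB-231, an established triple-negative breast cancer line, and the values were log2 readings of total RNA on Affymetrix Human Gene 2.0 ST arrays. The 3 groups of 3 arrays were JQ1 at 500 nM for 12 h, JQ1 at 500 nM for 24 h, and a control with no agent at time 0. JQ1 occupies the acetyl-lysine pockets of BET proteins and releases them from chromatin. The control is named without a vehicle and at a single time, so solvent and time in culture cannot be told apart from JQ1. The labels do not call the replicates separate cultures, so the p-values cover only array-to-array spread, part of which may be technical. The array medians lay between 4.92 and 4.96, so each change is relative to the other genes, and fewer cells and less RNA per cell cannot be told apart. Of markers known for the line, AXL lay between 11.50 and 12.02, the mesenchymal VIM between 10.23 and 10.69 and CD44 between 7.15 and 8.11. The epithelial keratins KRT18 and KRT8 lay between 9.78 and 10.67 and between 6.65 and 7.30. ESR1 and PGR, the hormone receptor genes that such a line lacks, lay between 4.81 and 5.17 and between 3.93 and 4.32, while ERBB2 and CDH1 were not analysed here.

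Control 3 stood apart from the other 2 controls. Across all rows it correlated with controls 1 and 2 at 0.9832 and 0.9828, while these correlated with each other at 0.9948. Its correlations with the JQ1 arrays ran from 0.9814 to 0.9888, and with JQ1 12 h replicates 2 and 3 (0.9888 and 0.9866) and JQ1 24 h replicate 2 (0.9856) they were higher than with either control. The ribosome biogenesis genes were among those that set it apart. In 30 of the 32 genes control 3 lay above both other controls, against 36.2% of all genes, and the median gene of the list was 0.61 log2 above the mean of controls 1 and 2, against −0.01 over all genes. The exceptions were RRP12, which lay between them, and ODC1, which was lower in control 3. The excess was highest for RRP1B (1.23), NOC3L (1.13) and RRS1 (1.13). In 31 of the 32 genes all 6 JQ1 arrays lay below control 3, against 21.5% of all genes, whereas they lay below both control 1 and control 2 in 11 (16.4% of all genes) and above both in 5 (15.8%). Comparisons with control are therefore given with and without control 3.

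**Figure D1:**
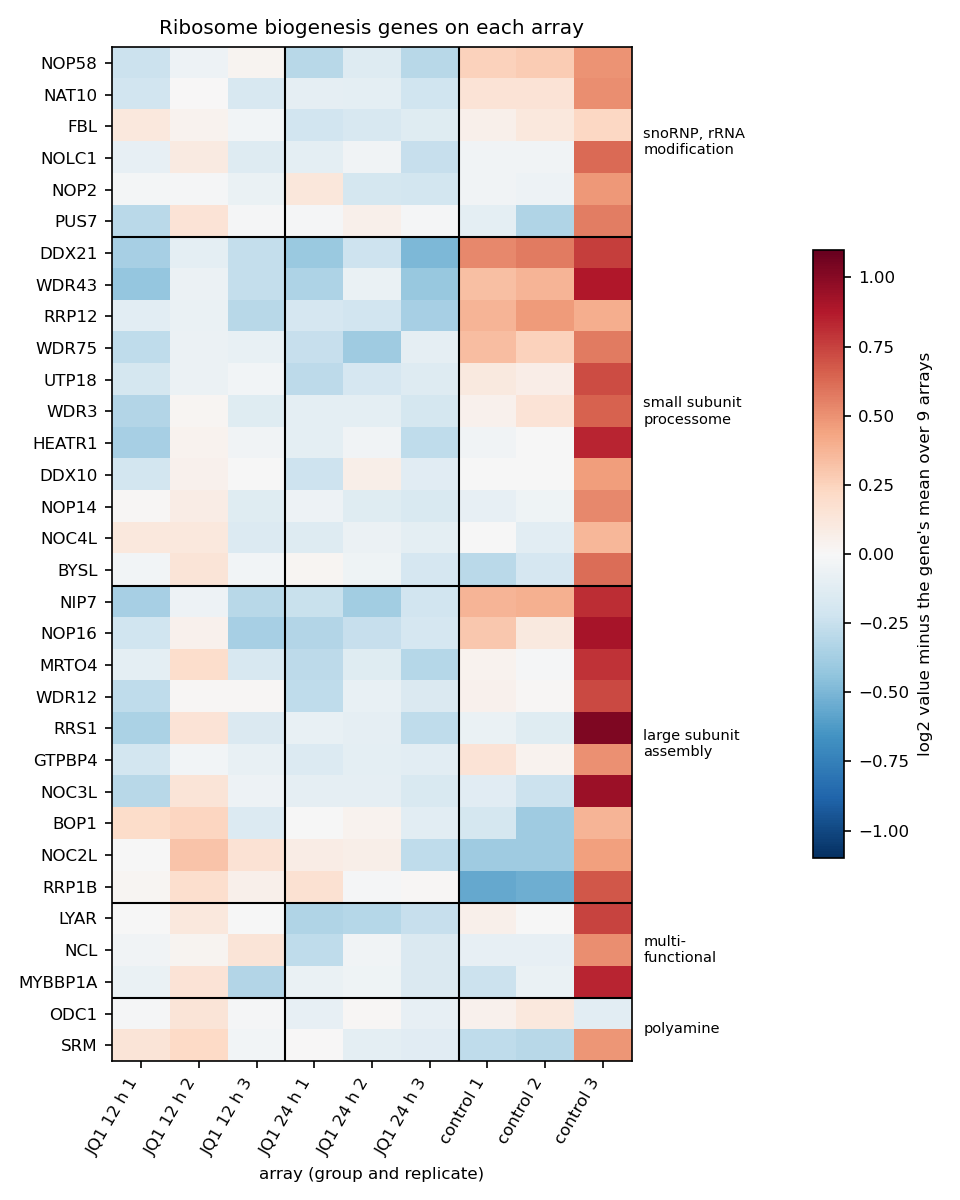
Log2 value minus each gene's mean over the 9 arrays, for the 32 measured genes (rows, grouped by role) on the JQ1 12 h, JQ1 24 h and control arrays (columns). Control 3 is the reddest column, while DDX21, WDR43, RRP12, WDR75 and NIP7 are blue on every JQ1 array and red on all 3 controls.

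After JQ1 a minority of these genes were called lower, led by the RNA helicase gene DDX21. The difference was below 0 in 27 of the 32 genes at 12 h and in 29 at 24 h, against 6985 and 6917 of all 14884 genes. With all arrays 6 genes were lower and 0 higher after 12 h, and 9 lower and 0 higher after 24 h (limma, adjusted p under 0.05 over all 14884 genes). Over all genes 4.39% were called lower at 12 h and 6.34% at 24 h, and 3.54% and 5.17% were called higher. The JQ1 and control arrays did not overlap, with JQ1 lower, in 11 genes of the list at 12 h and 15 at 24 h (10.9% and 12.8% of all genes), and with JQ1 higher in 0 at each time (11.3% and 13.3% of all genes). At an unadjusted p under 0.05 the limma counts were 11 lower and 0 higher at 12 h, and 15 lower and 0 higher at 24 h. The shares of all genes at that threshold were 11.0% lower and 10.5% higher at 12 h, and 12.9% lower and 12.2% higher at 24 h. The median difference over the 32 genes was −0.26 at 12 h and −0.33 at 24 h, against 0.01 over all genes at each time. Between arrays of a group the list's median had an SD of 0.25 in the 12 h comparison and 0.24 in the 24 h comparison, pooled over the 2 groups. Control 3 made up most of this spread. Relative to each gene's 9-array mean, the list's median was 0.60 on control 3 and between −0.17 and 0.05 on every other array. The 12 h count was 3 without JQ1 12 h replicate 1 or replicate 3, and the 24 h count was 5 without JQ1 24 h replicate 1 or replicate 3. The count of all genes called lower also dropped in these fits, to 312 and 359 against 654 at 12 h and to 530 and 427 against 944 at 24 h.

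Without control 3 the median fall was smaller, and some genes lay on the other side. At 12 h 6 genes were lower and 3 higher, and at 24 h 11 were lower and 1 higher. The shares of all genes called in that fit were 10.5% lower and 9.57% higher at 12 h, and 11.3% lower and 9.61% higher at 24 h. The median difference over the list was −0.04 at 12 h and −0.13 at 24 h. In 20 and 24 of the 32 genes the difference was below 0, against 7122 and 7052 of all 14884 genes. All 9 genes called lower with every array were again lower in this fit at the time of their call.

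**Figure D2:**
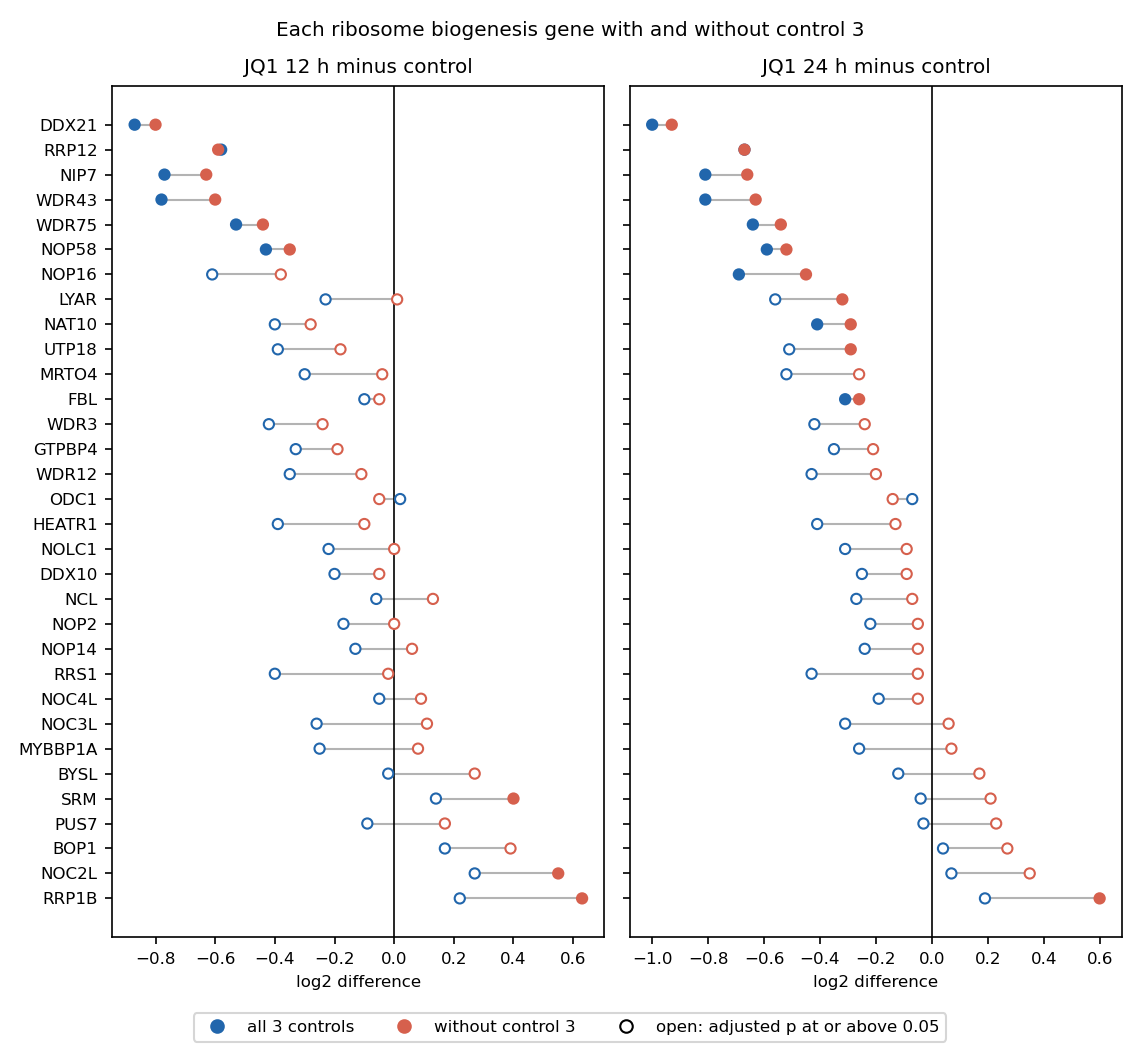
Log2 difference, JQ1 minus control, of each gene at 12 h (left) and 24 h (right), with all 3 controls (blue) and without control 3 (red). Filled points had an adjusted p under 0.05, and a grey line joins the 2 values of a gene. Leaving out control 3 moves nearly all genes to the right, with RRP1B at 0.63 against 0.22 at 12 h. DDX21 is at −0.80 and RRP12 at −0.59 without control 3, and RRP12 and ODC1 do not move to the right.

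MYC itself read 9.03, 9.21 and 9.01 at 12 h, 9.36, 9.13 and 9.35 at 24 h, and 10.29, 10.32 and 9.52 in the controls. Its difference was −0.96 at 12 h (SE 0.19) and −0.76 at 24 h (SE 0.19), adjusted p = 0.019 and 0.036, and −1.22 and −1.02 without control 3. The 12 h call was lost without control 1, control 2 or any JQ1 12 h array, and the 24 h call without any array but control 3. Control 3 was the lowest control for MYC, 0.79 below the mean of the other 2, and the highest for 30 of the 32 biogenesis genes.

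The letters CACGTG, the E-box that MYC and its partner MAX bind, were looked for in RefSeq promoter windows (build GRCh38.p14) of 250 bases before and 50 after each listed start. The motif reads the same on both strands and no other motif was searched. Of the 48 listed genes 41 had a window, and 20 of these (48.8%) held the motif at 1 start or more. The share was 11.0% among the genes on the array with a window and 8.77% among all genes with a window. Counted by window instead of by gene, 7.26% of all windows held it. The share was 4 of 7 (57.1%) among the genes called lower and 11 of 19 (57.9%) among the measured genes that were not called. These shares describe the windows and are no test. The sequences below show the motif in capitals, each as 30 bases read 5′ to 3′ on the gene's strand. Genes called with all arrays come first, then genes not called with all arrays.
DDX21, chr10:68956604-68956633, plus strand: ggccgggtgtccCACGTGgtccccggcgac
NAT10, chr11:34105602-34105631, plus strand: aatgcgcttgcgCACGTGctgtctaccagt
WDR43, chr2:28894658-28894687, plus strand: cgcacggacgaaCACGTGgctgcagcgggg
FBL, chr19:39846356-39846385, minus strand: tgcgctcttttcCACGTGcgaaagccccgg
UTP18, chr17:51260445-51260474, plus strand: gggagtgctggtCACGTGgcaagaggctgc
BYSL, chr6:41921515-41921544, plus strand: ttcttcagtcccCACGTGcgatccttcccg
NOC3L, chr10:94362903-94362932, minus strand: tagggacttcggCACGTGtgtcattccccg
SRM, chr1:11060200-11060229, minus strand: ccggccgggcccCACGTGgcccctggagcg
ODC1, chr2:10448024-10448053, minus strand: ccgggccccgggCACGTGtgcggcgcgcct
Counting the first transcribed base as 1 and the base before it as −1, the motif began at −31 in DDX21, −15 in NAT10, 4 in WDR43 and 7 in FBL. It began at −89 in UTP18, which held a further one at 5, at 29 in BYSL, at 20 in NOC3L and at −199 in SRM. In ODC1 it began at −29 and at 6. The motif was present in DDX21, the gene with the lowest difference, and also in SRM and ODC1, which were not called lower.

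The whole 250 bases before a start are shown for DDX21 and for NIP7, which encodes a ribosomal RNA processing factor. They were chosen because, among the genes with a window, these were called lower under all 17 alternatives at both times. DDX21 has 2 listed starts. The one shown is that with the motif, and the 250 bases before the other, chr10:68955920-68956169 on the plus strand, hold no CACGTG. The capitals are as before, and the NIP7 window holds no CACGTG.
DDX21, chr10:68956397-68956646, plus strand: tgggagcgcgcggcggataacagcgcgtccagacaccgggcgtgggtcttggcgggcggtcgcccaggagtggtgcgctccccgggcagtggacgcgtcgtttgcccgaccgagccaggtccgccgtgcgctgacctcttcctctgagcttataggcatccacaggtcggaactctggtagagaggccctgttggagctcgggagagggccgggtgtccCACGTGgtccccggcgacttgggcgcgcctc
NIP7, chr16:69339522-69339771, plus strand: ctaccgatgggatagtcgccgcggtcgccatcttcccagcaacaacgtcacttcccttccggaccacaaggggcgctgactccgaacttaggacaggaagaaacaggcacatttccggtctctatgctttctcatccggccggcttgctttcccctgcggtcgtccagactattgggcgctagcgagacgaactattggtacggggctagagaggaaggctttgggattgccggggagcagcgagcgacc

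DDX21 encodes a DEAD-box helicase that binds ribosomal DNA and snoRNAs and takes part in both transcription and processing of ribosomal RNA. It read 10.15, 10.41 and 10.25 at JQ1 12 h, 10.11, 10.29 and 10.02 at JQ1 24 h, and 11.04, 11.09 and 11.28 in the controls. All JQ1 arrays lay below all controls. The log2 difference was −0.87 at 12 h (SE 0.11, adjusted p = 0.0024) and −1.0 at 24 h (SE 0.11, adjusted p = 0.00099), a 2.00-fold lower level at 24 h. Without control 3 the differences were −0.80 and −0.93, and the call held under all 17 alternatives tried at each time.

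WDR43 and WDR75 encode proteins of the early subcomplex of the small subunit processome that binds the leading end of the nascent transcript. WDR43 read 8.97, 9.33 and 9.13 at 12 h, 9.05, 9.32 and 8.98 at 24 h, and 9.72, 9.77 and 10.27 in the controls. Its log2 difference was −0.78 at 12 h (SE 0.16, adjusted p = 0.021) and −0.81 at 24 h (SE 0.16, adjusted p = 0.014), with −0.60 and −0.63 without control 3. The 12 h call was lost without JQ1 12 h replicate 1 or replicate 3, and the 24 h call without JQ1 24 h replicate 1 or replicate 3. WDR75 read 9.64, 9.85 and 9.84 at 12 h, 9.66, 9.53 and 9.82 at 24 h, and 10.26, 10.17 and 10.49 in the controls. It fell by 0.53 at 12 h (SE 0.11, adjusted p = 0.023) and by 0.64 at 24 h (SE 0.11, adjusted p = 0.0081), with −0.44 and −0.54 without control 3. The 24 h call held whichever array was left out, and the 12 h call was lost without control 1 or any JQ1 12 h array. For both genes the JQ1 and control arrays did not overlap.

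HEATR1, a large scaffold of the same subcomplex, was not called. It read 8.28, 8.68 and 8.60 at 12 h, 8.53, 8.60 and 8.36 at 24 h, and 8.60, 8.64 and 9.48 in the controls. Its JQ1 arrays overlapped controls 1 and 2, and the difference was −0.39 at 12 h (SE 0.22) and −0.41 at 24 h (SE 0.22), or −0.10 and −0.13 without control 3.

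RRP12, which works in the maturation and nuclear export of pre-ribosomal particles, was one of the few genes that control 3 did not raise. It read 8.92, 8.96 and 8.73 at 12 h, 8.85, 8.82 and 8.67 at 24 h, and 9.41, 9.50 and 9.43 in the controls. The difference was −0.58 at 12 h (SE 0.09, adjusted p = 0.0053) and −0.67 at 24 h (SE 0.09, adjusted p = 0.0020). Without control 3 it was −0.59 and −0.67, and the calls at both times held under all 17 alternatives.

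Other small subunit factors were not called at either time. UTP18, of the U3 snoRNP-associated part of the processome, read 8.38, 8.51 and 8.54 at 12 h, 8.28, 8.39 and 8.43 at 24 h, and 8.68, 8.64 and 9.29 in the controls. The groups did not overlap, yet the adjusted p was 0.19 at 12 h and 0.075 at 24 h with all arrays, and 0.035 at 24 h without control 3 (difference −0.29). WDR3 read 9.98, 10.32 and 10.17 at 12 h, 10.19, 10.19 and 10.11 at 24 h, and 10.35, 10.45 and 10.95 in the controls. It also did not overlap control, with a difference of −0.42 at each time (SE 0.15, adjusted p = 0.14 and 0.12), or −0.24 at each time without control 3. For NOP14, NOC4L, DDX10 and BYSL, factors of small subunit assembly, the differences lay between −0.25 and −0.02 with all controls, and between −0.09 and 0.27 without control 3. In all, 4 of the 11 measured genes filed under this role were called lower at each time, against 4.39% and 6.34% of all genes. The 4 include DDX21, whose known roles are not limited to the small subunit.

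In the large subunit group 1 of 10 measured genes was called at 12 h and 2 at 24 h, all lower. Over all genes 4.39% and 6.34% were called lower. NIP7, needed for processing of ribosomal RNA precursors, read 9.35, 9.66 and 9.41 at 12 h, 9.47, 9.34 and 9.51 at 24 h, and 10.09, 10.11 and 10.53 in the controls. All JQ1 arrays were below all controls. The difference was −0.77 at 12 h (SE 0.13, adjusted p = 0.0094) and −0.81 at 24 h (SE 0.13, adjusted p = 0.0058), −0.63 and −0.66 without control 3, and the calls held under all 17 alternatives at each time. NOP16 read 7.65, 7.91 and 7.50 at 12 h, 7.54, 7.61 and 7.68 at 24 h, and 8.16, 7.97 and 8.77 in the controls. The groups did not overlap, and the difference of −0.69 at 24 h (SE 0.19, adjusted p = 0.048) was called while that of −0.61 at 12 h (adjusted p = 0.089) was not. Without control 3 the values were −0.45 at 24 h and −0.38 at 12 h. The 24 h call was kept without control 2 or control 3 and was lost without any of the other arrays (adjusted p up to 0.15). It was also lost with a replicate block, with only the 2 groups in the fit and with trend and robust moderation (adjusted p = 0.080, 0.11 and 0.051).

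In 3 of the 10 measured large subunit genes all 6 JQ1 arrays lay above controls 1 and 2 and below control 3. This held for 5 of the 32 genes of the list, against 354 of all 14884 genes. JQ1 arrays above controls 1 and 2, whatever control 3 read, were also found in 5 of the 32, against 15.8% of all genes. RRP1B, a nucleolar protein of the large subunit pathway, read 8.28, 8.44 and 8.31 at 12 h, 8.42, 8.24 and 8.27 at 24 h, and 7.69, 7.72 and 8.94 in the controls. Its 6 JQ1 arrays were above controls 1 and 2 and below control 3. With all controls the difference was 0.22 (SE 0.28) at 12 h and 0.19 (SE 0.28) at 24 h and was not called. Without control 3 it was 0.63 (SE 0.09, adjusted p = 0.00091) and 0.60 (SE 0.09, adjusted p = 0.0011). RRP1B, NOC2L and SRM are named here after their values were seen, since they are the genes called higher without control 3.

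NOC2L, which helps move large subunit precursors and also inhibits histone acetylation, was the dimmest gene of the list. It read 5.22, 5.54 and 5.38 at 12 h, 5.30, 5.29 and 4.94 at 24 h, and 4.83, 4.83 and 5.67 in the controls, and was higher at 12 h in the fit without control 3 (0.55, SE 0.13, adjusted p = 0.015). BOP1, which with WDR12 forms part of a complex for large subunit RNA processing, also had its JQ1 arrays between the controls, at 8.0, 8.04 and 7.65 at 12 h and 7.80, 7.84 and 7.68 at 24 h, against 7.61, 7.41 and 8.17 in the controls. It was not called with all controls (0.17 at 12 h, SE 0.19) or without control 3 (0.39, adjusted p = 0.061), and its second row on the array was not called either (0.06 at 12 h).

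WDR12 read 8.09, 8.38 and 8.38 at 12 h, 8.09, 8.29 and 8.21 at 24 h, and 8.42, 8.38 and 9.10 in the controls. Its difference of −0.43 at 24 h (SE 0.18, adjusted p = 0.17), or −0.20 without control 3, was not called. Its 24 h arrays lay below all controls, as did those of MRTO4. MRTO4, a relative of the ribosomal stalk protein that acts as its placeholder during assembly, read 8.24, 8.54 and 8.17 at 12 h, 8.06, 8.21 and 8.03 at 24 h, and 8.38, 8.33 and 9.14 in the controls (−0.52 at 24 h, SE 0.20, adjusted p = 0.14, and −0.26 without control 3). RRS1 read 6.93, 7.43 and 7.12 at 12 h, 7.20, 7.18 and 7.0 at 24 h, and 7.21, 7.15 and 8.31 in the controls. For RRS1 the difference of −0.43 at 24 h was −0.05 without control 3. GTPBP4, a nucleolar GTPase, did not overlap control at either time (−0.33 and −0.35, SE 0.12) and had adjusted p-values of 0.13 and 0.090, while NOC3L was at −0.26 and −0.31 (SE 0.27). Without control 3 GTPBP4 was at −0.19 and −0.21 and NOC3L at 0.11 and 0.06.

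**Figure D3:**
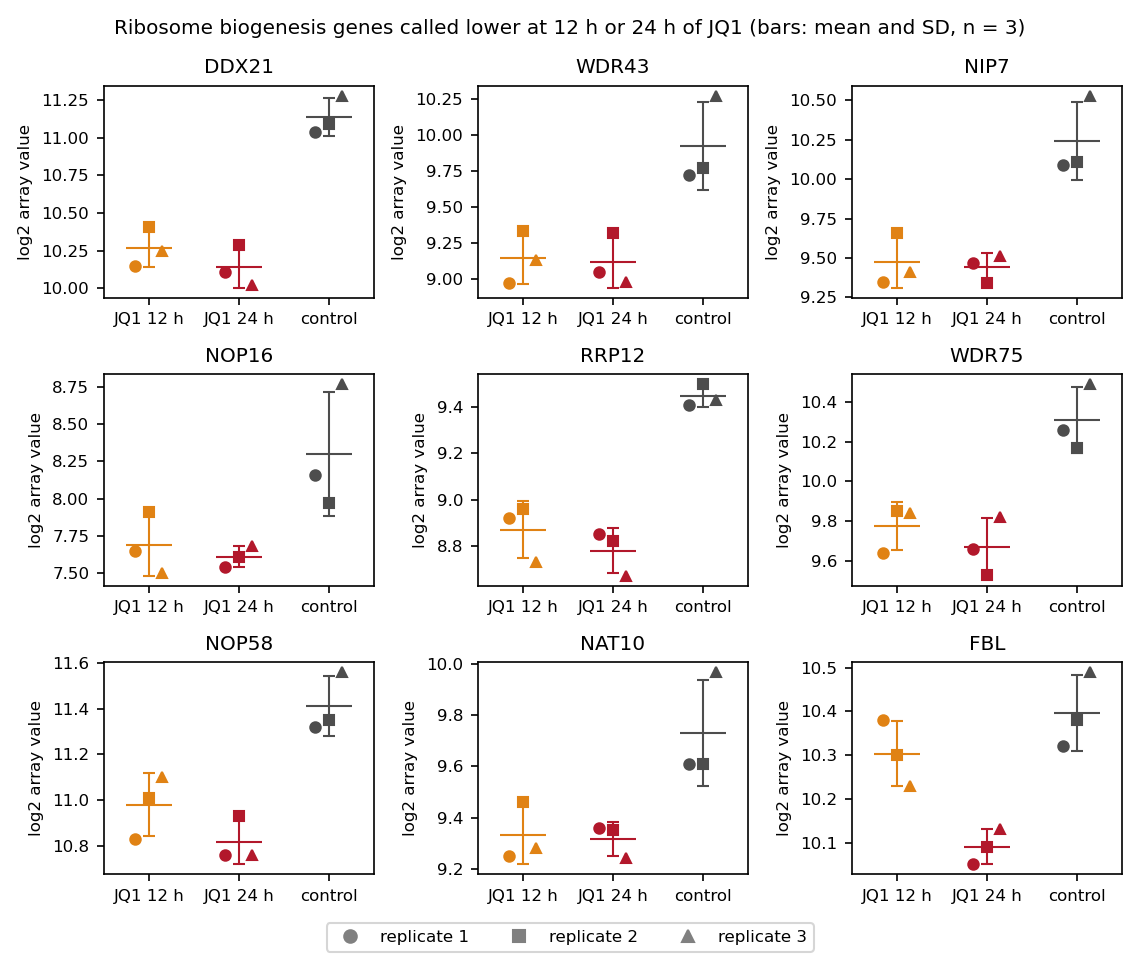
Log2 array values of the 9 genes called lower at 12 h or 24 h, for JQ1 12 h, JQ1 24 h and control arrays (symbols mark replicates, bars the mean and SD of 3 arrays). Every JQ1 24 h array lies below every control in each panel. FBL overlaps control at 12 h, and control 3 (triangle) is the highest control except for RRP12.

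Among snoRNP and modification genes 1 of 6 measured was called at 12 h and 3 at 24 h, all lower (4.39% and 6.34% of all genes). NOP58 and FBL encode core proteins of the box C/D snoRNP, FBL being the methyltransferase itself. NOP58 read 10.83, 11.01 and 11.10 at 12 h, 10.76, 10.93 and 10.76 at 24 h, and 11.32, 11.35 and 11.56 in the controls, without overlap. It fell by 0.43 at 12 h (SE 0.10, adjusted p = 0.034) and by 0.59 at 24 h (SE 0.10, adjusted p = 0.0067), with −0.35 and −0.52 without control 3. The 24 h call held under all 17 alternatives, and the 12 h call was kept only without control 3 or JQ1 24 h replicate 2 among the 9 arrays left out in turn (adjusted p up to 0.11).

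FBL read 10.38, 10.30 and 10.23 at 12 h, 10.05, 10.09 and 10.13 at 24 h, and 10.32, 10.38 and 10.49 in the controls. The 12 h arrays overlapped control and the 24 h arrays did not. The difference was −0.10 at 12 h (SE 0.07, adjusted p = 0.55) and −0.31 at 24 h (SE 0.07, adjusted p = 0.030), with −0.26 at 24 h without control 3. The 24 h call was lost without control 1, control 2, JQ1 12 h replicate 2 or any JQ1 24 h array (adjusted p up to 0.099), and also with a replicate block, with only the 2 groups in the fit and with trend and robust moderation (adjusted p = 0.071, 0.060 and 0.053).

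NAT10, the enzyme that acetylates cytidines of the small subunit RNA, read 9.25, 9.46 and 9.28 at 12 h, 9.36, 9.35 and 9.24 at 24 h, and 9.61, 9.61 and 9.97 in the controls. The groups did not overlap at either time. The difference was −0.40 at 12 h (SE 0.11, adjusted p = 0.064) and −0.41 at 24 h (SE 0.11, adjusted p = 0.046), or −0.28 and −0.29 without control 3. Among the arrays left out in turn the 24 h call was kept only without control 3 (adjusted p up to 0.15). It was also lost with the block, the 2 groups alone and the trend and robust moderation (adjusted p = 0.086, 0.097 and 0.061). NOLC1, a snoRNP chaperone, NOP2, an RNA methyltransferase, and PUS7, a pseudouridine synthase, overlapped control at both times, with differences between −0.31 and −0.03 and between −0.09 and 0.23 without control 3. A second row of PUS7 was not called either.

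The abundant or multifunctional nucleolar proteins NCL, LYAR and MYBBP1A were not called with all arrays. NCL encodes nucleolin, one of the main nucleolar proteins. It read 8.72, 8.79 and 8.90 at 12 h, 8.48, 8.72 and 8.60 at 24 h, and 8.67, 8.67 and 9.27 in the controls. The groups overlapped, and the difference was −0.06 at 12 h (SE 0.16) and −0.27 at 24 h (SE 0.16), or 0.13 and −0.07 without control 3. LYAR, a nucleolar zinc finger protein, read 8.44, 8.56 and 8.44 at 12 h, 8.11, 8.13 and 8.19 at 24 h, and 8.50, 8.44 and 9.19 in the controls. Its 24 h arrays lay below all others, with a difference from control of −0.56 (SE 0.17, adjusted p = 0.070), or −0.32 (SE 0.08, adjusted p = 0.016) without control 3. MYBBP1A, a MYB-binding nucleolar protein, was at −0.25 and −0.26 (SE 0.25), or 0.08 and 0.07 without control 3.

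The measured polyamine synthesis genes, SRM and ODC1, were not called with all arrays. SRM, spermidine synthase, read 11.92, 12.00 and 11.75 at 12 h, 11.78, 11.67 and 11.65 at 24 h, and 11.50, 11.47 and 12.26 in the controls. All 6 JQ1 arrays lay between controls 1 and 2 on 1 side and control 3 on the other. The difference was 0.14 at 12 h (SE 0.19) and −0.04 at 24 h (SE 0.19), and without control 3 it was 0.40 at 12 h (SE 0.09, adjusted p = 0.013) and 0.21 at 24 h (adjusted p = 0.15). ODC1, ornithine decarboxylase, the entry enzyme of the pathway, read 12.47, 12.62 and 12.47 at 12 h, 12.39, 12.49 and 12.39 at 24 h, and 12.53, 12.60 and 12.36 in the controls. Its differences of 0.02 and −0.07 (SE 0.09), or −0.05 and −0.14 without control 3, were not called.

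Between 12 h and 24 h no gene of the list was called. In limma, JQ1 24 h against JQ1 12 h gave 0 of 32 lower and 0 higher, and 0.00672% of all genes were called lower and 0% higher. At an unadjusted p under 0.05, 1 gene of the list was lower and 0 higher, against 3.41% of all genes lower and 3.27% higher. Without control 3 the count was again 0 of 32, against 0.101% of all genes lower and 0.0470% higher, and at an unadjusted p under 0.05 it was 4 lower and 0 higher, against 6.32% of all genes lower and 5.33% higher. The differences lay between −0.33 and 0.07, with a median of −0.09 against 0.00 over all genes. Below 0 were 30 of the 32, against 7403 of all 14884 genes. The 32 genes share the same arrays and are not separate replicates. The list's median per array, from each gene's 9-array mean, was −0.15, 0.05 and −0.08 at 12 h. At 24 h it was −0.13, −0.10 and −0.17, overlapping the 12 h values, with an SD of 0.08 between arrays of a group, pooled over both groups. The lowest difference was that of LYAR (−0.33, SE 0.17, adjusted p = 0.79), followed by those of MRTO4 (−0.22, SE 0.20) and FBL (−0.21, SE 0.07, adjusted p = 0.63). LYAR and FBL were the 2 genes whose 24 h arrays all lay below all 12 h arrays, which held for 7.11% of all genes, and 0 genes of the list had all 24 h arrays above (5.76% of all genes).

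Some of these genes also host snoRNAs, small guides that are released from introns when the host RNA is spliced. In RefSeq's annotation 9 of the 48 listed genes span 26 snoRNA genes, among them SNORD11 and SNORD70 in NOP58, SNORD53 and SNORD92 in WDR43, and SNORD20 and SNORD82 in NCL. None of the 26 was on a named row, so the snoRNAs of the hosts that fell, NOP58 and WDR43, were not analysed here.

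Beyond the list, 143 other genes of the same pathways were followed, of which 105 were measured. At 12 h 21 were lower and 2 higher, and at 24 h 29 were lower and 2 higher, against the background shares given above. By role the counts lower at 24 h were 8 of 25 for small subunit assembly, 9 of 34 for large subunit assembly, 3 of 9 for snoRNP genes, 5 of 19 for the RNA exosome and RNase MRP, 2 of 3 for RNA polymerase I and its factors, and 2 of 15 for polyamine and nucleotide synthesis. With all arrays both higher calls at each time were in the polyamine and nucleotide synthesis list. Without control 3 the counts were 24 lower and 15 higher at 12 h, and 28 lower and 15 higher at 24 h. Of the 15 higher, 4 at each time were in the polyamine and nucleotide synthesis list. In that fit 10.5% of all genes were called lower and 9.57% higher at 12 h, and 11.3% and 9.61% at 24 h. Without JQ1 12 h replicate 1 or 3 the 12 h count was 12 or 11 lower, and without control 1 or control 2 it was 12 in each case. The counts of all genes called lower in those fits were 312, 359, 305 and 330, against 654 with all arrays. The 24 h count was 13, 17 and 12 without JQ1 24 h replicates 1, 2 and 3, and 19 and 17 without controls 1 and 2. Over all genes these fits called 530, 666, 427, 555 and 570 lower, against 944. The 2 higher calls became 1 at 12 h without control 1, control 2 or any JQ1 12 h array, and 1 at 24 h without any array but control 3.

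The lowest 3 at 12 h, EXOSC8, RSL24D1 and UTP25, lay below the mean of the other controls in control 3, with differences of −0.02, −0.61 and −0.24. EXOSC8, a subunit of the RNA exosome that trims ribosomal RNA precursors, read 8.05, 8.50 and 8.27 at 12 h, 7.83, 8.25 and 7.98 at 24 h, and 9.30, 9.35 and 9.31 in the controls. It fell by 1.05 at 12 h (SE 0.13, adjusted p = 0.0028) and by 1.30 at 24 h (SE 0.13, adjusted p = 7.9e-04), with −1.05 and −1.31 without control 3. RSL24D1, a placeholder protein on the large subunit precursor, read 8.45, 8.92 and 8.75 at 12 h, 8.55, 8.92 and 8.71 at 24 h, and 9.98, 10.01 and 9.38 in the controls. Its fall was 1.08 at 12 h (SE 0.19, adjusted p = 0.0097), and its difference at 24 h was −1.06 (adjusted p = 0.0079), with −1.28 and −1.26 without control 3. For both genes the JQ1 and control arrays did not overlap, and the calls held under all 17 alternatives.

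UTP25, of the small subunit processome, read 7.48, 7.64 and 7.54 at 12 h, 7.75, 7.74 and 7.70 at 24 h, and 8.50, 8.48 and 8.25 in the controls. The difference was −0.86 at 12 h (SE 0.09, adjusted p = 0.0012) and −0.68 at 24 h (SE 0.09, adjusted p = 0.0017), called under all 17 alternatives at each time, with −0.93 and −0.76 without control 3. MAK16, of the large subunit pathway, read 7.73, 8.15 and 7.91 at 12 h, 7.76, 7.74 and 7.59 at 24 h, and 8.08, 8.40 and 8.98 in the controls. Its 24 h arrays lay below all controls, and it was called at 24 h (−0.79, SE 0.20, adjusted p = 0.037, and −0.54 without control 3), a call that held without control 1 or control 3 and was lost without any other array. Those called higher were IMPDH2, the rate-limiting enzyme of guanine nucleotide synthesis, and OAZ2, an antizyme that inhibits ornithine decarboxylase. IMPDH2 read 10.63, 10.73 and 10.63 at 12 h, 10.52, 10.53 and 10.59 at 24 h, and 9.74, 9.65 and 10.37 in the controls. It rose by 0.74 at 12 h (SE 0.16, adjusted p = 0.026) and by 0.63 at 24 h (SE 0.16, adjusted p = 0.038), with 0.97 and 0.85 without control 3. The 12 h call was lost without control 1, control 2 or any JQ1 12 h array, and the 24 h call was kept only without control 3 among the arrays left out. OAZ2 read 7.88, 7.98 and 8.0 at 12 h, 7.84, 7.73 and 7.75 at 24 h, and 7.42, 7.40 and 7.23 in the controls. It rose by 0.60 at 12 h (SE 0.08, adjusted p = 0.0032) and by 0.42 at 24 h (SE 0.08, adjusted p = 0.010), with 0.54 and 0.36 without control 3, and held under all 17 alternatives at each time.

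**Figure D4:**
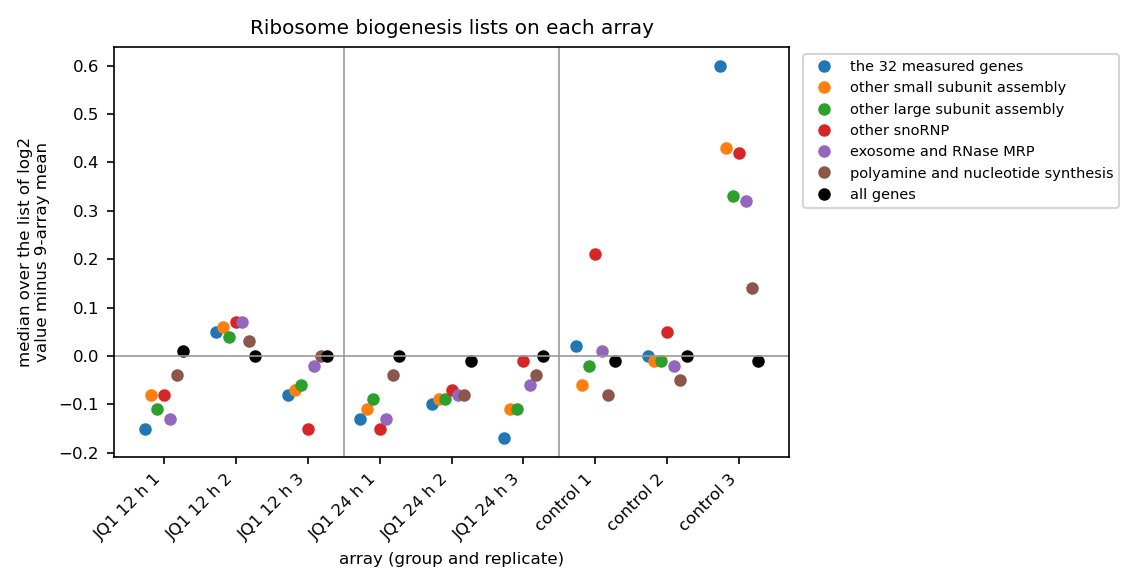
Median over each list of the log2 value minus the gene's 9-array mean, for the 32 measured genes, the other biogenesis lists with more than 3 measured genes, and all genes, on each array. The 32 genes stand at 0.60 on control 3, against 0.02 and 0.00 on controls 1 and 2 and between −0.17 and 0.05 on the JQ1 arrays, while all genes stay between −0.01 and 0.01.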

How the data were processed

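The authors deposited 1 table of log2 array values, 53617 rows by 9 arrays. The submitters' processing notes name Transcriptome Analysis Console. Its version and the background correction, normalization and probe summary are not given in the sources used here. The log2 unit was read from the values, which ran from 2.01 to 13.88. GEO's platform annotation gave 1 symbol to 16098 rows and left 37519 unnamed here. Each of the 14884 genes was represented by its brightest row on average. Of the 32 measured genes, BOP1 and PUS7 had 2 rows.

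Each comparison used limma 3.58.1 (R 4.3.3) with 1 mean per group over all 9 arrays, empirical Bayes moderation, and Benjamini-Hochberg adjustment over all genes in each comparison. The threshold was 0.05. The script was tested on simulated data. The gene list, the other biogenesis lists and the tests were chosen with earlier results of these data known. Array values were given for genes called against control, for the 6 with the largest difference among those not called, for NCL, FBL and MYC, and for the 3 lowest and 3 highest called of the other lists. HEATR1, BOP1, RRP1B, NOC2L, SRM and ODC1 were added after their values were seen. Alternatives left out each array, added a replicate block, and changed the normalization, dim gene filter, row choice, samples in the fit, moderation and array weights. The 9 arrays limit the precision.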

Additional observations from a re-analysis of the deposited data

How the results depend on the processing

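No gene named here reversed direction with a call under any of the 17 alternatives, and 16 of the 28 calls of named genes against control held under all of them. Leaving out 1 array at a time, the genes of the list called lower ranged from 3 to 6 at 12 h and from 5 to 11 at 24 h, those called higher from 0 to 3 and from 0 to 1. In the other lists, polyamine and nucleotide synthesis included, the genes called lower ranged from 11 to 24 at 12 h and from 12 to 28 at 24 h. Those called higher ranged from 1 to 15 at each time. The list's median difference ranged from −0.40 to −0.04 at 12 h and from −0.47 to −0.13 at 24 h. With only the 2 groups compared in the fit, 3 genes of the list were lower at 12 h, and of the others 10 were lower and 1 higher at 12 h and 1 higher at 24 h. The 12 h calls of NOP58, WDR43, WDR75, MYC and IMPDH2 and the 24 h calls of FBL, NAT10, NOP16, MYC, MAK16 and IMPDH2 were lost in that fit. Those of FBL, NAT10 and NOP16 at 24 h were also lost with trend and robust moderation, which left 6 of 9. Over all genes that moderation called 866 lower at 24 h, against 944 without it. With array weights, which gave control 3 a weight of 0.21, 3 genes of the list were higher at 12 h and 1 at 24 h. Of the others 15 and 11 were higher. The genes of the list called lower without weights kept those calls. Over all genes the weights gave 1718 higher and 1780 lower at 12 h, and 1790 higher and 1974 lower at 24 h. Over all genes 1181 were called at 12 h and 1714 at 24 h, against 543 to 2986 and 786 to 3111 with 1 array left out, 577 and 994 with only the 2 groups, and 3498 and 3764 with array weights; 24 h against 12 h gave 1, against 1 to 22 with 1 array left out and 14 with array weights. The cause was not tested. Deviations from the group means correlated at −0.32 to 0.17 between same-numbered JQ1 and control arrays, and at −0.27 to 0.29 between unlike-numbered ones. Between JQ1 24 h and 12 h arrays these ranges were −0.01 to 0.22 and −0.14 to 0.13. With 3 arrays a group and control 3 apart, the correlations cannot decide whether the numbers mark pairs. The labels do not say so, and the numbers were not taken as pairs. With the replicate block 6 genes were lower at 12 h and 6 at 24 h, where FBL, NAT10 and NOP16 lost the call. Of the others 20 and 26 were lower and 2 and 2 higher. Over all genes the block gave 517 lower and 450 higher at 12 h, and 784 lower and 694 higher at 24 h. Without the block these were 654 and 527 at 12 h, and 944 and 770 at 24 h. No detection call was used, and NOC2L, between 4.83 and 5.67, lay nearest to the array medians.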
